A study of Mus musculus with 6 samples.

Results

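The 10 genes described here encode matrix metalloproteinases (MMPs) and the tissue inhibitors that bind them (TIMPs) in mouse soleus, a postural calf muscle rich in slow fibers. They are the proteases *Mmp2*, *Mmp14*, *Mmp15*, *Mmp17*, *Mmp19* and *Mmp23* and the inhibitors *Timp1*, *Timp2*, *Timp3* and *Timp4*. They were chosen by symbol in the deposited table of normalized counts, which holds 16180 genes in 16247 rows, and were joined by Ensembl identifier to the raw count table of 51912 genes, where all 10 were found. Whole soleus RNA was sequenced from 3 mice heterozygous for a whole-body knockout-first allele of *Mustn1* (HET) and from 3 wild-type littermates (WT), all C57BL6/N and 8 weeks old. This allele traps the *Mustn1* transcript after its first exon with an inserted lacZ and neomycin cassette, which HET mice carry on 1 of their copies in every tissue and WT mice lack. The comparison addresses which transcripts differ in muscle with less *Mustn1*, which encodes a small protein of musculoskeletal tissue. A level is given as CPM, a gene's reads per 1000000 reads on genes after the composition correction TMM.

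The 6 libraries held 26790075 to 50368796 reads on genes. *Mustn1* had 12.6 to 16.8 CPM in HET and 23.1 to 30.5 CPM in WT mice, so each library matched its genotype label. The estimate for *Mustn1* in edgeR was a log2 fold change of −0.96 with an adjusted p of 0.0452, and with 1 mouse left out it passed the adjusted threshold of 0.05 in 2 of 6 fits. Slow-fiber markers summed to 37190 to 39533 CPM in HET and 38059 to 42316 CPM in WT mice, as the soleus label requires. All mice are labelled male, yet every library held 3858 to 9154 reads of *Xist*, the RNA of the inactive X chromosome, and 0 to 12 reads summed over 4 Y-linked genes. All 6 libraries thus had the read pattern of female mice, against their label. The labels only number the mice within a genotype, and p-values measure the spread between these 6 libraries.

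MMPs are zinc-dependent endopeptidases that cut collagens, laminins, fibronectin and proteoglycans. Most are secreted or displayed as inactive zymogens and are switched on by removal of a propeptide, and TIMPs then block the active site with a tight, reversible complex. The best-described cascade on fibroblasts joins members of both families, since Mmp14 at the cell surface holds Timp2, the free end of Timp2 captures pro-Mmp2, and a neighbouring Mmp14 cleaves it. In skeletal muscle these enzymes are known for remodelling the matrix around fibers during growth, repair and exercise.

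Sequences are shown for *Mmp2*, for which PCR primers were designed, and for the promoters of *Mmp14* and *Timp4*, whose fold changes had opposite signs. The study's own quantitative PCR primers for *Mmp2* were located in the annotation to show which part of the transcript they read. The forward primer lies in exon 7 of 13 of transcript ENSMUST00000034187.8 (GRCm38, chr8:92837041-92837060, plus strand) and the reverse primer in exon 8 (chr8:92839330-92839349, minus strand), which gives a product of 136 bases across the intron.
Mmp2 forward: acgatgatgaccggaagtgg
Mmp2 reverse: gtgtagatcggggccatcag

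Promoter windows of 250 bases before the RefSeq start were present for 7 of the 10 members in RefSeq's promoter table (GRCm38.p6). For *Mmp14* (chr14:54431348-54431597, plus strand) and *Timp4* (chr6:115252206-115252455, minus strand) they read as follows, with capitals marking the letters GGGCGG, the GC box.
Mmp14: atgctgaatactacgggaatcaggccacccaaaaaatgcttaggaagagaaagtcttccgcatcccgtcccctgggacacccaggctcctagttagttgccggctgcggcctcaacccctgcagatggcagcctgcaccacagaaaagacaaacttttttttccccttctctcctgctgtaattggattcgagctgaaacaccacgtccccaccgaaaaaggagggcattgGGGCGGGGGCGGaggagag
Timp4: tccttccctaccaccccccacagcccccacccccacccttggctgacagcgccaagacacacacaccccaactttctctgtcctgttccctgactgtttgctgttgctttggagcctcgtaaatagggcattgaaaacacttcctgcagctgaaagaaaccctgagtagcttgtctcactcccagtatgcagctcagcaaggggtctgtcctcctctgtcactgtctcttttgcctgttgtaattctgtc

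The *Mmp14* window held 2 GC boxes, 19 and 13 bases before the start, and had a GC content of 55.2%. The *Timp4* window held none and had a GC content of 53.6%, where the median over all promoters was 52.4%. Searched on both strands, GGGCGG was present in 32.7% of 32851 promoter windows of the same length, and it was found in the windows of *Mmp14*, *Mmp15*, *Timp1*, *Timp2* and *Timp3* but not in those of *Mmp23* and *Timp4*. The AP-1 letters TGANTCA, present in 6.75% of all windows, and the TATA letters TATAAA, present in 12.4%, were in no window of the 7 members. The windows of *Mmp15*, *Timp2* and *Timp3* and a window of *Mmp23* overlapped annotated exons of the same gene by 28 to 108 bases. The GC box of *Timp3* lay within such an overlap. These matches describe letters within the windows only.

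Divided by exon length, the 10 genes spanned 3 tiers of abundance. In WT mice *Timp2* had the highest mean at 15.5 ± 3.58 CPM per kilobase of exons (SD, n = 3), and its range overlapped that of *Mmp2*, the secreted gelatinase, at 12.7 ± 3.27 (SD, n = 3). *Timp3* followed at 11.98 ± 4.86, *Mmp15* at 7.48 ± 1.22 and *Timp4* at 7.21 ± 1.91 CPM per kilobase (SD, n = 3 each), each overlapping its neighbours in this order. Below a gap stood *Mmp14* at 3.21 ± 0.689 and *Timp1* at 2.98 ± 1.69 CPM per kilobase (SD, n = 3 each), which overlapped each other. The rarest tier held *Mmp23* at 0.423 ± 0.149 and *Mmp19* at 0.333 ± 0.107, which overlapped, and *Mmp17* at 0.147 ± 0.0713 CPM per kilobase, whose range lay below both (SD, n = 3 each). Over both genotypes *Timp2* lay above 89.3% and *Mmp2* above 86.8% of the 14696 genes tested, per length, and *Mmp17* above 4.59%.

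The order differed in HET mice in the middle of the list. *Timp2* at 26.8 ± 4.57 and *Mmp2* at 21.8 ± 3.02 CPM per kilobase (SD, n = 3 each) overlapped each other and both lay wholly above *Timp3* at 10.9 ± 1.65 CPM per kilobase (SD, n = 3), whereas in WT mice all 3 overlapped. *Timp4*, the fifth gene in WT mice, was the seventh in HET mice at 4.70 ± 0.191 CPM per kilobase (SD, n = 3), after *Timp1* at 5.61 ± 1.23 and *Mmp14* at 5.21 ± 1.16 CPM per kilobase (SD, n = 3 each), whose ranges overlapped its own. The ranking of *Mmp23*, *Mmp19* and *Mmp17* was the same in both genotypes.

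**Figure D1:**
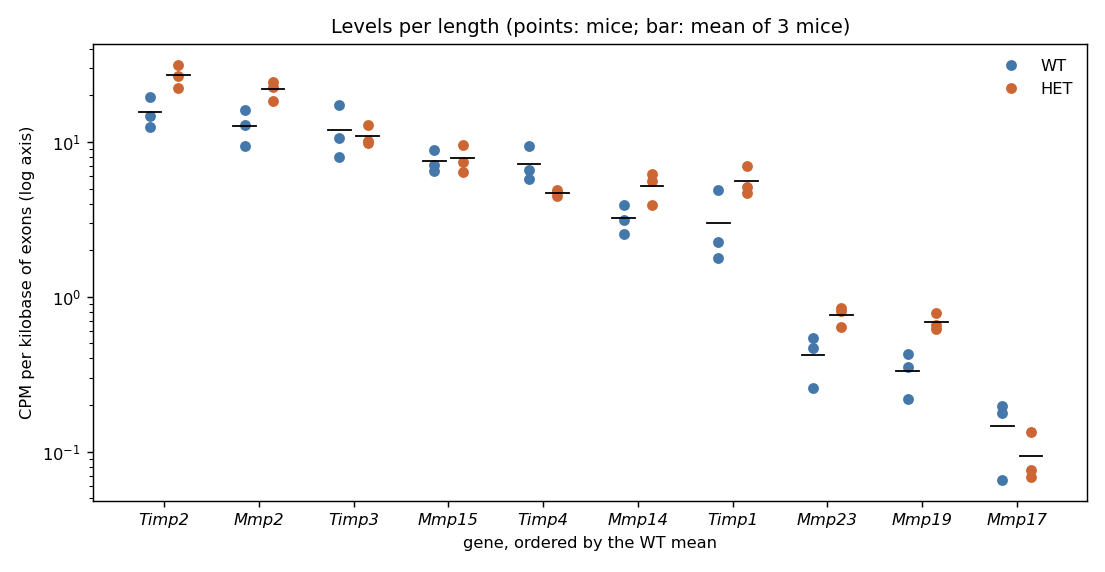
Level of each member in CPM per kilobase of exons (log axis), with a point for each mouse (blue, WT; orange, HET) and a bar at the mean of 3 mice. The genes are ordered by their WT mean, from *Timp2* at 15.5 to *Mmp17* at 0.147, and a gap separates *Mmp14* and *Timp1* from the 3 rare proteases in both genotypes.

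*Mmp2* (ENSMUSG00000031740, GRCm38 chromosome 8, 92827291 to 92853420) encodes gelatinase A, the secreted protease of the cascade above. It had 62.1, 76.8 and 81.7 CPM in HET mice 1 to 3 and 31.8, 43.2 and 53.9 CPM in WT mice 1 to 3. Every HET mouse therefore stood above every WT mouse, and the HET mean was 1.71 times the WT mean. The log2 fold change was 0.77 (standard error 0.18, 95% interval 0.36 to 1.19), which did not pass the threshold after adjustment over all genes (edgeR adjusted p = 0.198). DESeq2's Wald test on the same counts gave 0.78 (standard error 0.17) with an adjusted p of 0.00141, and over 15 alternative settings of edgeR, DESeq2 and limma the adjusted p ranged from 1.05e-09 to 0.648. Without WT mouse 3, the highest of the WT mice, the log2 fold change was 0.97 and passed the threshold (edgeR adjusted p = 0.0333).

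The 3 membrane-type proteases among the members gave different estimates, and the intervals of *Mmp15* and *Mmp17* spanned 0. *Mmp14* (ENSMUSG00000000957, chromosome 14, 54431612 to 54441265), the surface-anchored collagenase that activates pro-Mmp2, had 16.8, 23.9 and 26.5 CPM in HET and 10.97, 16.9 and 13.6 CPM in WT mice. The genotypes met at a single point, where HET mouse 1 was just under WT mouse 2. The difference came to 0.70 on the log2 scale (standard error 0.19, 95% interval 0.26 to 1.13, edgeR adjusted p = 0.269), and DESeq2 gave an adjusted p of 0.0252; the adjusted p ranged from 2.25e-05 to 0.837 over the 15 alternatives.

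*Mmp15* (ENSMUSG00000031790, chromosome 8, 95352268 to 95375080), another transmembrane protease able to activate pro-Mmp2, had 34.6, 51.7 and 40.2 CPM in HET and 35.1, 47.7 and 38.4 CPM in WT mice. Mouse 2 of each genotype was the highest, and the lowest mouse of each differed little. The log2 fold change was 0.06 with a 95% interval of −0.29 to 0.42 (edgeR adjusted p = 0.969), and the sign turned negative in 2 of the 6 fits with 1 mouse left out. *Mmp17* (ENSMUSG00000029436, chromosome 5, 129584169 to 129611099), which is held in the membrane by a glycolipid anchor, had only 19, 24 and 20 reads in HET and 13, 37 and 58 reads in WT mice. At this depth its log2 fold change of −0.70 carried a 95% interval from −1.68 to 0.28 (edgeR adjusted p = 0.821), and WT mouse 1 lay below every HET mouse, at 0.435 CPM against 0.456 to 0.894 CPM.

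The remaining proteases were rare, and both were higher in every HET mouse. *Mmp19* (ENSMUSG00000025355, chromosome 10, 128790910 to 128800824), a soluble protease that cuts basement membrane proteins, had 82, 62 and 122 reads in HET and 23, 35 and 75 reads in WT mice, or 2.19, 2.31 and 2.78 CPM against 0.769, 1.24 and 1.52 CPM. Its log2 fold change of 1.02 was the highest of the 10 genes in this fit, while *Timp1* was higher with limma-voom, with the gene-length trend removed and without WT mouse 2. The standard error of *Mmp19* was 0.27, with a 95% interval of 0.42 to 1.63 (edgeR adjusted p = 0.239). Its exons share 789 bases with *Tmem198b* and 212 bases with *Gm47093*, both on the opposite strand, and counting was strand-specific. *Mmp23* (ENSMUSG00000029061, chromosome 4, 155650655 to 155653384), a transmembrane protease that lacks the usual hemopexin domain, had 56, 51 and 87 reads in HET and 18, 36 and 54 reads in WT mice. In CPM the HET mice stood at 1.496, 1.90 and 1.98 and the WT mice at 0.602, 1.28 and 1.09, and the difference came to 0.85 on the log2 scale (standard error 0.30, 95% interval 0.17 to 1.52, edgeR adjusted p = 0.444).

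**Figure D2:**
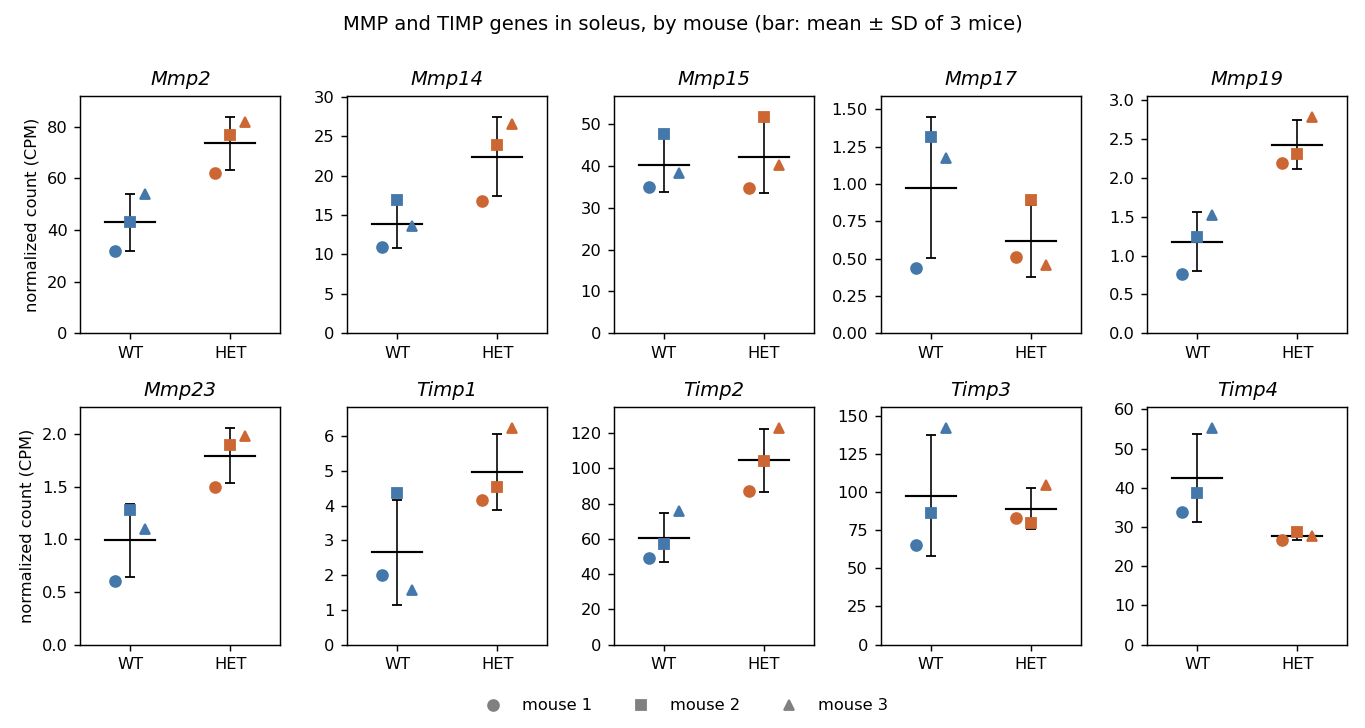
Normalized count in CPM of each of the 10 genes in each mouse, on linear axes that start at 0 (blue, WT; orange, HET; circle, square and triangle, mouse 1, 2 and 3; bars, mean ± SD of 3 mice). The genotypes do not overlap for *Mmp2*, *Mmp19*, *Mmp23* and *Timp2*, where HET is higher, and for *Timp4*, where HET is lower; they overlap for the other 5 genes.

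Among the inhibitors, *Timp2* and *Timp4* lay on opposite sides. *Timp2* (ENSMUSG00000017466, chromosome 11, 118301069 to 118355740), which both blocks Mmp2 and helps to activate it, had 87.0, 104 and 123 CPM in HET and 48.8, 56.8 and 76.0 CPM in WT mice. The genotypes did not overlap, and the log2 fold change came to 0.79 (standard error 0.18, 95% interval 0.39 to 1.18, edgeR adjusted p = 0.168). DESeq2 gave an adjusted p of 0.000582, and the adjusted p ranged from 1.29e-10 to 0.525 over the 15 alternatives. Leaving out WT mouse 3 took *Timp2* past the threshold (log2 fold change 0.98, edgeR adjusted p = 0.0221).

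*Timp4* (ENSMUSG00000030317, chromosome 6, 115241892 to 115252205) encodes an inhibitor known for its expression in heart and muscle. Its levels in HET mice were 26.6, 28.8 and 27.8 CPM, with an SD of 4.07% of the mean, the narrowest spread of any member. The WT mice stood at 33.7, 38.6 and 55.1 CPM, all above the HET mice and with an SD of 26.5% of the mean. The edgeR log2 fold change was −0.62, and its 95% interval was −0.98 to −0.26, with an adjusted p of 0.237. DESeq2's Wald test called it lower (adjusted p = 0.0255), and the adjusted p ranged from 2.61e-05 to 0.714 over the 15 alternatives. Without WT mouse 3, the log2 fold change was −0.38 (edgeR adjusted p = 0.266), closer to 0.

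*Timp1* (ENSMUSG00000001131, chromosome X, 20870166 to 20874735), a secreted inhibitor that is a weak partner of the membrane-type MMPs, had 4.17, 4.55 and 6.22 CPM in HET and 2.01, 4.36 and 1.58 CPM in WT mice. WT mouse 2 reached the HET range and the other WT mice did not. The log2 fold change was 0.94 with a standard error of 0.35 (95% interval 0.14 to 1.74, edgeR adjusted p = 0.514), and it was 1.49 without WT mouse 2 (edgeR adjusted p = 0.121).

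*Timp3* (ENSMUSG00000020044, chromosome 10, 86300372 to 86349506), the inhibitor that stays bound to the matrix and also blocks ADAM proteases, had 82.6, 79.6 and 104 CPM in HET and 65.0, 86.1 and 142 CPM in WT mice. The HET mice lay inside the WT range, whose ends differed 2.18-fold. The log2 fold change was −0.14 (95% interval −0.82 to 0.54, edgeR adjusted p = 0.962), and it became 0.23 without WT mouse 3.

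*Timp1*, *Timp3* and *Timp4* all sit inside synapsin genes on the opposite strand, an arrangement known across vertebrates. *Timp1* lies within an intron of *Syn1*, which had 3 to 15 reads per library. *Timp3* lies within *Syn3*, shares 1733 exon bases with it and had 1943 to 6987 reads where *Syn3* had 9 to 28. *Timp4* lies within *Syn2* and shares 90 exon bases with it, and *Syn2* had 119 to 232 reads and a log2 fold change of 0.14 with overlapping genotypes (edgeR adjusted p = 0.936). *Timp2*, which has no synapsin host, instead encloses *Cep295nl* on its own strand with no shared exon bases and 0 to 6 reads of that gene.

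Counted together, 7 of the 10 log2 fold changes were above 0 and their median was 0.74, while over the 14696 genes tested 45.6% were above 0 and the median was −0.02. The median was 0.74 over the 6 proteases and 0.32 over the 4 inhibitors. No member passed edgeR's adjusted threshold, at which 0.143% of all genes were called higher and 0.0068% lower. At an unadjusted p under 0.05 edgeR had 6 members higher, where 5.76% of all genes were higher, and 1 lower, where 2% of all genes were lower. In 4 members all HET mice exceeded all WT mice, as in 7.55% of all genes, and in 1 member they all fell short of them, as in 6.02%. DESeq2 called 3 members higher (*Mmp2*, *Mmp14* and *Timp2*) and 1 lower (*Timp4*), beside 1.12% and 0.0562% of its 17801 genes, and limma-voom called none. The members were picked with earlier results of these mice known, so these shares describe them and do not test them.

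**Figure D3:**
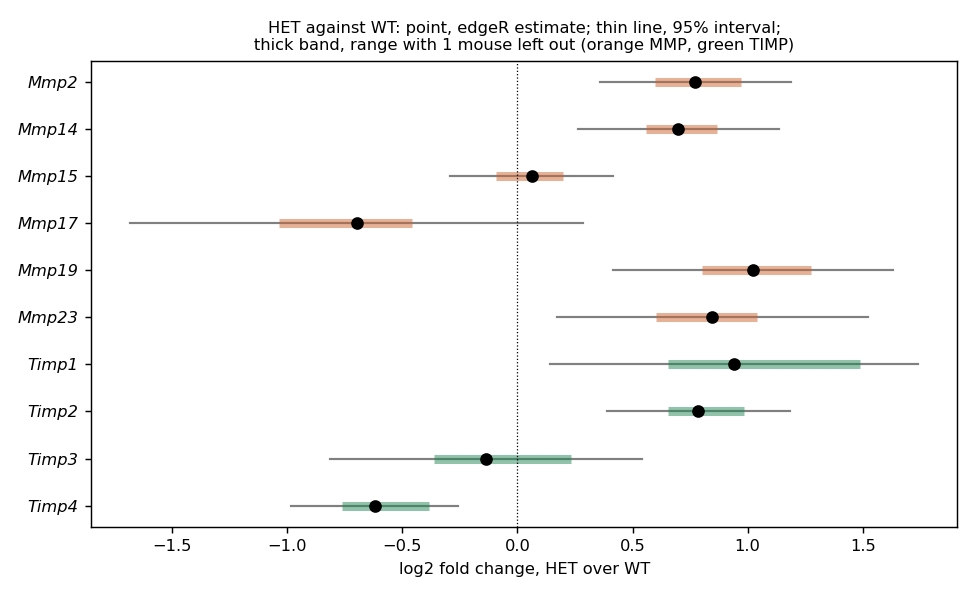
Log2 fold change of each gene, HET over WT, from edgeR (point), its 95% interval (thin line) and the range over the 6 fits with 1 mouse left out (thick band; orange, MMP genes; green, TIMP genes). The bands of *Mmp15* and *Timp3* cross 0 and those of the other 8 genes do not; no gene passed the adjusted threshold with all 6 mice.

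Protease and inhibitor transcript levels were then set against each other within each mouse, per length. These are ratios of RNA in whole muscle and do not measure protein or enzyme activity. Summed over the 6 proteases, HET mice had 30.1, 39.5 and 39.5 CPM per kilobase and WT mice 19.0, 26.7 and 27.3, with no overlap. Summed over the 4 inhibitors, they had 41.7, 46.5 and 56.0 CPM per kilobase in HET and 28.5, 36.6 and 48.0 in WT mice, which overlapped. The protease to inhibitor ratio was 0.722, 0.850 and 0.706 in HET and 0.668, 0.729 and 0.569 in WT mice. Its means were 0.759 ± 0.0785 and 0.655 ± 0.0806 (SD, n = 3 each), a fold of 1.16, and HET mice 1 and 3 were below WT mouse 2. This ratio depended on its most abundant terms, since the fold was 0.961 without *Mmp2* and 1.54 without *Timp2*. No p-value is given for these ratios, and with 3 mice against 3 an exact two-sided permutation test cannot go below 0.1.

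The pairs of genes behaved differently from one another. *Mmp2* over *Timp2* was 0.825, 0.852 and 0.770 in HET and 0.754, 0.879 and 0.819 in WT mice, so HET mice lay within the WT range and the fold of the means was 0.998. *Mmp14* over *Timp2* ranged from 0.175 to 0.208 in HET and from 0.162 to 0.269 in WT mice, again with the HET mice inside the WT range. The transcripts of the 3 genes of the activation complex thus kept overlapping proportions in the 2 genotypes, although *Mmp2* and *Timp2* were each higher in every HET mouse.

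Ratios against *Timp3* and *Timp4* were separate between genotypes, and ratios against *Timp1* were not. *Mmp2* over *Timp4* was 4.09, 4.66 and 5.14 in HET and 1.65, 1.96 and 1.71 in WT mice, a fold of 2.61 between means of 4.63 ± 0.526 and 1.77 ± 0.164 (SD, n = 3 each). *Mmp14* over *Timp3* was 0.386, 0.568 and 0.481 in HET and 0.320, 0.371 and 0.181 in WT mice, a fold of 1.65. *Mmp2* over *Timp1*, added after the values were seen, was 3.93, 4.45 and 3.46 in HET and 4.18, 2.61 and 8.98 in WT mice, and the HET mice lay inside the WT range. *Mmp14* over *Timp1*, added likewise, also overlapped, from 0.834 to 1.09 in HET and from 0.799 to 1.77 in WT mice. *Timp2* over *Timp4*, a pair chosen after its values were seen, was 4.96, 5.47 and 6.68 in HET and 2.19, 2.23 and 2.08 in WT mice. The WT values of this ratio had a mean of 2.17 and an SD of 0.0754, although WT mouse 3 alone had the highest level of *Timp2* and *Timp4* in its group.

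**Figure D4:**
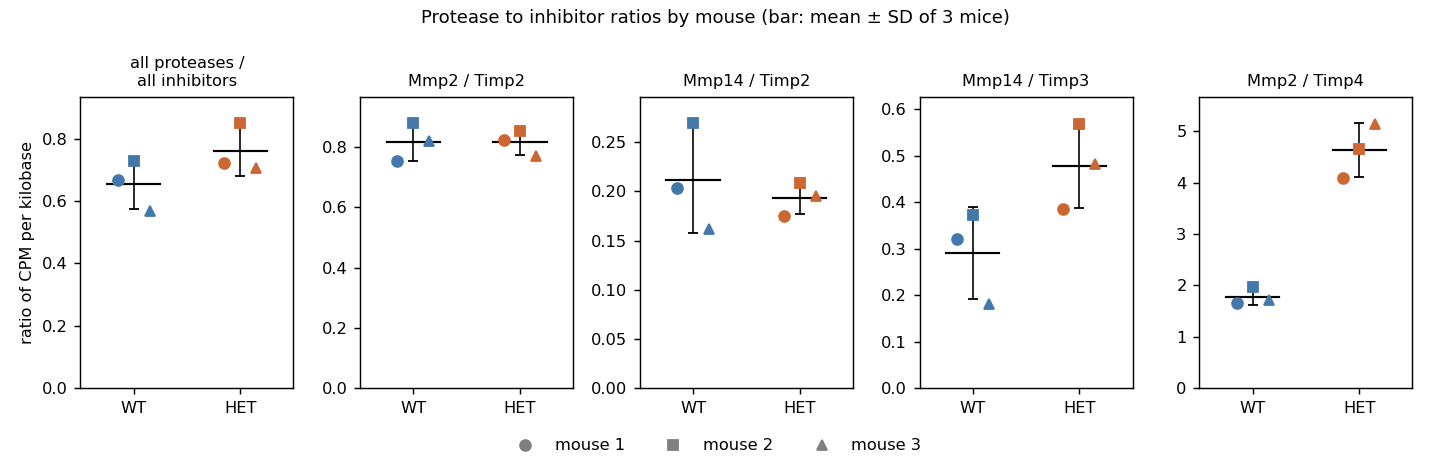
Ratio of CPM per kilobase between proteases and inhibitors in each mouse, on linear axes from 0 (blue, WT; orange, HET; circle, square and triangle, mouse 1, 2 and 3; bars, mean ± SD of 3 mice). *Mmp2* over *Timp2* sits between 0.754 and 0.879 in all 6 mice, whereas *Mmp2* over *Timp4* sits between 1.65 and 1.96 in WT and between 4.09 and 5.14 in HET mice. The separation of *Mmp2* over *Timp4* follows from the levels of both genes, which each separate the genotypes.

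The makeup of each family showed the same contrast as shares. *Timp2* made up 55.7 ± 1.98% of the summed inhibitor level per length in HET and 41.5 ± 2.21% in WT mice (SD, n = 3 each), with no overlap. *Timp4* made up 9.91 ± 1.30% in HET and 19.1 ± 1.14% in WT mice, and *Timp3* 22.7 ± 1.66% and 31.0 ± 4.50%, both lower in every HET mouse (SD, n = 3 each). The *Timp1* share overlapped, from 11.01% to 12.5% in HET and from 3.71% to 13.4% in WT mice. Shares within a mouse sum to the whole, so they are not independent of each other.

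Among the proteases, *Mmp2* held the highest share in every mouse, at 57.6% to 61.3% in HET and 48.0% to 58.5% in WT mice, and these ranges overlapped. *Mmp15* held 21.5 ± 2.696% in HET and 31.1 ± 4.42% in WT mice (SD, n = 3 each), lower in every HET mouse although its own level overlapped. *Mmp14* held 13.0% to 15.6% and 11.5% to 14.7%, which overlapped, and *Mmp17*, *Mmp19* and *Mmp23* each held at most 2.14% in any mouse.

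**Figure D5:**
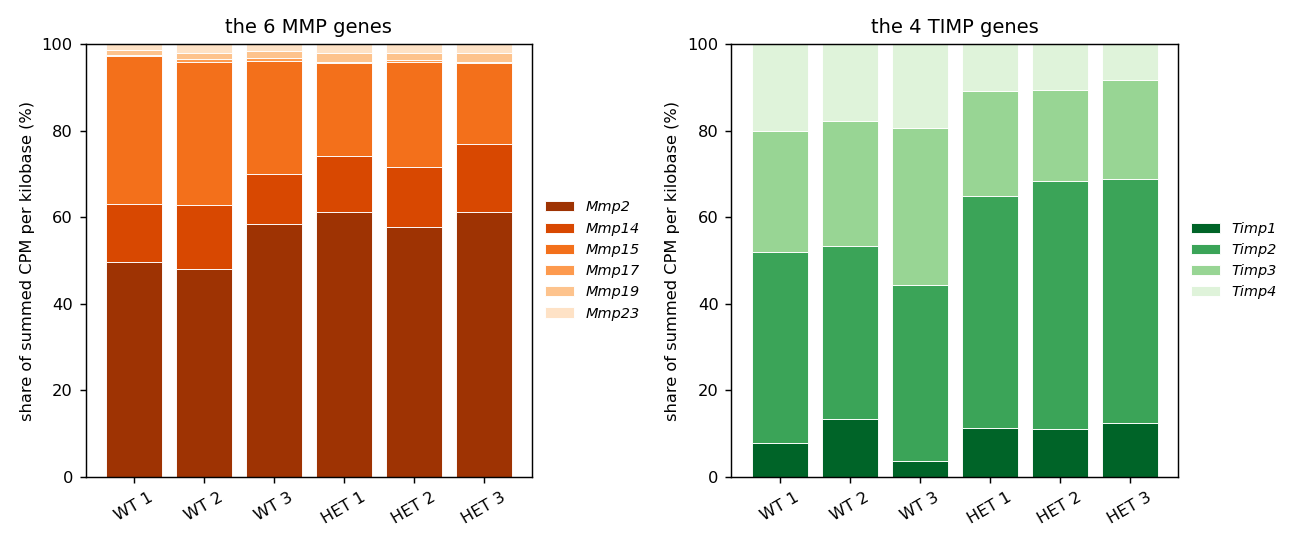
Share of the summed CPM per kilobase taken by each of the 6 MMP genes (left) and each of the 4 TIMP genes (right), one stacked bar per mouse. *Timp2* takes 39.8% to 44.0% of the inhibitor bars in WT and 53.6% to 57.5% in HET mice, and *Timp4* 17.9% to 20.1% and 8.42% to 10.8%.

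The levels of the other genes that act with MMPs were read from the same fit. Of 17 other MMP genes, 3 had enough reads to be tested, with log2 fold changes of 0.27 for *Mmp11*, 0.21 for *Mmp28* and −0.19 for *Mmp16*, and 5 had no read in any library (*Mmp1a*, *Mmp1b*, *Mmp7*, *Mmp10* and *Mmp20*). A list of 8 genes tied to the activation or induction of MMPs held proprotein convertases and the plasminogen activator system. Of these 8 genes 7 were tested, none was called by edgeR, and 4 were higher at an unadjusted p under 0.05 (5.76% over all genes). In 5 the HET mice all exceeded the WT mice (7.55% over all genes). The median log2 fold change of the 7 was 0.54. It ran from −0.08 for *Bsg*, a surface glycoprotein that induces MMPs, to 0.86 for *Plaur*, the urokinase receptor. *Plau*, which encodes urokinase, had 19.6, 17.2 and 18.2 CPM in HET and 12.3, 13.2 and 12.3 CPM in WT mice (log2 fold change 0.54, edgeR adjusted p = 0.108), a tight spread within each genotype.

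Of 8 genes that restrain or clear MMPs by other routes, 6 were tested, all 6 had log2 fold changes above 0 with a median of 0.50, none was called by edgeR, 3 were higher at an unadjusted p under 0.05 (5.76% over all genes), and in 3 all HET mice exceeded all WT mice (7.55%). The highest was *Thbs1*, a matricellular protein that binds Mmp2, with 44.1, 34.2 and 49.1 CPM in HET and 11.5, 20.0 and 20.5 CPM in WT mice (log2 fold change 1.29, edgeR adjusted p = 0.105). *Lrp1*, an endocytic receptor that clears MMPs, had 104, 114 and 123 CPM in HET and 45.7, 61.2 and 86.6 CPM in WT mice (log2 fold change 0.81, edgeR adjusted p = 0.263). *Reck*, a membrane-anchored MMP inhibitor outside the TIMP family, had 5.05, 4.47 and 6.22 CPM in HET and 2.91, 2.62 and 3.99 CPM in WT mice (log2 fold change 0.72, edgeR adjusted p = 0.280).

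All 13 matrix substrates listed had log2 fold changes above 0, with a median of 0.58, none was called by edgeR, and 8 were higher at an unadjusted p under 0.05 (5.76% over all genes). They ran from 0.04 for *Dag1*, the dystroglycan gene, to 1.23 for *Col1a1*, the major fibrillar collagen chain, which had 380, 782 and 715 CPM in HET and 154, 339 and 308 CPM in WT mice (edgeR adjusted p = 0.549). Over these 4 lists, 29 of 46 genes were tested, 27 lay above 0, edgeR and limma-voom called none, 15 were higher at an unadjusted p under 0.05 and none lower, where 5.76% and 2% of all genes were, and 16 had all HET mice above all WT mice, as in 7.55% of all genes. DESeq2 called 8 of them higher, beside 1.12% of its genes, namely *Pcsk6*, *Plau*, *Lrp1*, *Thbs1*, *Bgn*, *Col3a1*, *Col5a1* and *Dcn*, the last of which is also a fibroblast marker.

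The bulk libraries held several cell types, and the summed levels of fibroblast, macrophage and tenocyte markers were higher in every HET mouse, also without the most abundant gene of each list, a check added after the values were seen. The 12 fibroblast and fibro-adipogenic progenitor markers all lay above 0 in log2 fold change, and in 6 all HET mice exceeded all WT mice (7.55% over all genes). Of these 12, edgeR called 1 higher (*Pi16*), where 0.143% of all genes were, and limma-voom called none. The fibroblast markers summed to 1438, 1454 and 1586 CPM in HET and 768, 884 and 1176 CPM in WT mice. The 12 macrophage markers also all lay above 0, and in 10 all HET mice exceeded all WT mice (7.55% over all genes). EdgeR called 5 of them higher (0.143% over all genes), and limma-voom called 2, where it called 3 of 14696 genes higher. The macrophage markers summed to 87.7 to 126 CPM in HET and 50.0 to 56.1 CPM in WT mice. The 8 tenocyte markers summed to 372 to 664 CPM in HET and 120 to 300 CPM in WT mice, with none called by edgeR and 6 higher at an unadjusted p under 0.05 (5.76% over all genes). Of the 9 smooth muscle and mural markers 6 lay above 0, and the summed level was 817 to 910 CPM in HET and 921 to 1076 CPM in WT mice. Most of that sum was *Rgs5*, a pericyte gene, at 570 ± 74.2 CPM in HET and 715 ± 47.5 CPM in WT mice (SD, n = 3 each, edgeR adjusted p = 0.385), and without it the sums overlapped, from 251 to 323 CPM in HET and from 202 to 316 CPM in WT mice. Endothelial markers (719 to 877 and 766 to 938 CPM) and adipocyte markers (568 to 907 and 576 to 746 CPM) overlapped. Of the 8 adipocyte markers 6 lay above 0, with a median log2 fold change of 0.95, and each overlapped between the genotypes. *Plin4* and *Fabp4*, the most abundant of them, had log2 fold changes of −0.16 and −0.13. The part of these cell types in the members' levels was not tested, and in whole muscle fewer cells of a type and less RNA per cell cannot be told apart.

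Set against the fibroblast markers, a scale chosen after the values were seen, the members divided differently. Per 1000 CPM of summed fibroblast markers, *Mmp2* had 49.2 ± 5.20 CPM in HET and 45.4 ± 3.74 CPM in WT mice, and *Timp2* 69.8 ± 8.54 and 64.1 ± 0.533 CPM (SD, n = 3 each), all overlapping. *Mmp14* overlapped as well, at 14.9 ± 2.81 and 14.97 ± 3.84 CPM (SD, n = 3 each). *Timp4* on this scale was 18.5, 19.8 and 17.5 CPM in HET and 43.9, 43.6 and 46.9 CPM in WT mice, and *Timp3* was 57.5, 54.8 and 65.7 CPM against 84.6, 97.5 and 120 CPM, both without overlap and lower in HET. *Mmp19* stayed higher in every HET mouse, at 1.52 to 1.75 CPM against 1.001 to 1.40 CPM. Leaving out *Gsn*, the most abundant of these markers, gave the same overlaps for all 10 members but changed the folds of HET over WT means. The fold went from 1.08 to 1.23 for *Mmp2*, from 1.09 to 1.23 for *Timp2* and from 0.998 to 1.15 for *Mmp14*. The near-equal means of these 3 genes on this scale thus depended on *Gsn*.

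The genes whose pattern over the 6 mice was closest to a member's were found by the root mean square difference of mean-centred log2 CPM, where a lower value means a closer pattern. Before the logarithm 0.5 was added to each CPM, which shrinks the differences of rare genes. The 5 closest to *Mmp2* were the secreted Dickkopf-family gene *Dkk3* (0.0593), the secreted BMP antagonist *Nbl1* (0.0665), *Timp2* (0.0764), *Mmp19* (0.0780) and *Itgbl1* (0.0787), against a median of 0.498 over all genes, so 2 of the 5 were members. Among the 5 closest to *Timp4* were *Gm16008* (0.0908), the phospholamban gene *Pln* (0.0985), *Mid1* (0.122) and *Draxin* (0.131), against a median of 0.382. *Draxin* was near the floor, at means of 0.0979 CPM in HET and 0.399 CPM in WT mice. Its edgeR log2 fold change was −2.08, against −0.62 for *Timp4*, so its closeness here does not mean a change of like size. *Timp4* itself differed from *Mmp2* by 0.694 and from *Timp2* by 0.697, while its nearest members were *Mmp17* at 0.297 and *Timp3* at 0.308. *Mmp17* was also rare, at means of 0.619 CPM in HET and 0.974 CPM in WT mice. Of the genes closest to *Mmp2*, *Mmp19* had means of 2.43 CPM in HET and 1.18 CPM in WT mice. *Dkk3* had 3.65 and 1.91 CPM. Their edgeR log2 fold changes were 1.02 and 0.91, against 0.77 for *Mmp2*, so the added 0.5 brought both closer to *Mmp2*. These are descriptions over 6 libraries that share their genotype contrast.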

How the data were processed

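RNA was sequenced from soleus of 3 HET and 3 WT mice as stranded polyA libraries of single 50-base reads. The authors aligned reads with STAR 2.7.3a to GRCm38.p6 and deposited raw counts per gene from featureCounts 2.0.3, set to the reverse strand. They also deposited DESeq2-normalized counts, which are counts divided by a size factor per library (a normalized signal), used here only to find the members. Names came from that table and GENCODE M21.

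Raw counts were tested with edgeR 4.0.16 (R 4.3.3): TMM factors, filterByExpr with a minimum count of 10 (14696 genes), robust quasi-likelihood test on genotype, Benjamini-Hochberg adjustment and threshold 0.05. CPM used TMM factors and exon lengths of the count table. Alternatives were RLE and upper quartile factors, no filter, DESeq2 1.42.0, limma 3.58.1 (voom), non-robust dispersion, a replicate block, removal of a gene-length trend, and leaving out each mouse. The procedure was tested on simulated data. All members are named. List genes are named when called with or without the block and at the ends of each range, with others chosen after their values were seen; 2 genes that this rule names are not reported here. Members and lists were chosen with earlier results of these data known.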

Additional observations from a re-analysis of the deposited data

How the results depend on the processing

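With all 6 mice, edgeR called 21 genes higher and 1 lower in HET (846 and 294 at an unadjusted p under 0.05). The counts higher and lower became 386 and 18 with no filter on low counts, 200 and 10 with DESeq2, 3 and 0 with limma-voom (873 and 298 unadjusted) and 6 and 0 with non-robust dispersion (848 and 297 unadjusted), and with 1 mouse left out ranged from 0 to 77 and from 0 to 6; the cause was not tested. The highest, 77 and 6, came without WT mouse 3. With the replicate number as a block they were 114 and 2, and with the block and the gene-length trend removed 140 and 2. The labels do not say whether the numbers pair the mice. In their deviations from the genotype means, same-numbered HET and WT mice correlated at 0.203, −0.00578 and −0.0349. Differently numbered mice correlated at −0.137 to 0.133, and with 3 mice per genotype these values cannot decide whether the mice are paired. With the block *Mmp2* and *Timp2* were called, beside 114 higher and 2 lower of all 14696 genes. *Mmp14* was called as well with the length trend removed, beside 140 and 2 of 14696 genes. With no filter 6 members were called, beside 386 and 18 of 29081 genes. They were the 4 of DESeq2 plus *Mmp19* and *Timp1*. Of the listed pathway genes DESeq2 called 8, beside 200 and 10 of 17801 genes. The block called 9 of them (*Pcsk6*, *Lrp1*, *Thbs1*, *Col1a1*, *Col1a2*, *Col5a1*, *Fn1*, *Dcn* and *Bgn*), beside its 114 and 2 of 14696 genes. Fits with 1 mouse left out called 0 to 2 of them, beside 0 to 77 higher and 0 to 6 lower over all genes. With 1 mouse left out the log2 fold change of *Mmp15* ranged from −0.0936 to 0.197 and that of *Timp3* from −0.36 to 0.23, so both signs turned; the other 8 members kept their sign in all 15 alternatives. The protease to inhibitor fold was 0.961 without *Mmp2*, 1.54 without *Timp2*, 1.24 without division by length and 1.09 to 1.23 with 1 mouse left out; HET mice were all above WT mice without *Timp2* and without WT mouse 2. Depth limits *Mmp17*, with 13 to 58 reads per library.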

Other observations

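Of the 17 other MMP genes, 2 below the filter on low counts, singled out after their values were seen, had more reads in every HET mouse than in any WT mouse. The share of 7.55% over all genes covers only genes that passed the filter, so it gives no background for them. *Mmp13*, an interstitial collagenase, had 10, 7 and 13 reads in HET and 2, 1 and 2 reads in WT mice, and its adjusted p was 0.478 with DESeq2 and 0.184 with edgeR without the filter. *Mmp9*, the gelatinase of neutrophils and macrophages, had 6, 11 and 22 reads in HET and 0, 4 and 2 reads in WT mice, with an adjusted p of 0.390 from DESeq2 and 0.0618 from edgeR without the filter. *Mmp3*, stromelysin, overlapped, with 5, 6 and 32 reads in HET and 8, 1 and 7 reads in WT mice.

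Across the 10 members, WT mouse 1 was the lowest of the 6 mice in 7 genes and HET mouse 3 the highest in 6 genes.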
